A study of Mus musculus with 10 samples.

Results

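The genes described here encode the AMPA receptor, the ionotropic glutamate receptor that carries fast excitatory synaptic current, and proteins that accompany it. The set was given as a list of 10 genes: the pore-forming subunit genes Gria1, Gria2, Gria3 and Gria4, the TARP (transmembrane AMPA receptor regulatory protein) genes Cacng2, Cacng4, Cacng5 and Cacng7, and the cornichon genes Cnih2 and Cnih3. All 10 were found among the 55367 genes of the deposited tables. Their levels are given in each of 10 single neurons of the preBötzinger complex (preBötC), the brainstem site from which the inspiratory rhythm arises.

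The neurons were recorded in slices from neonatal mice, classified from their membrane properties, and their cytoplasm was drawn into the patch pipette for sequencing, so that each sample is 1 library from 1 neuron. The Type-2 neuron (sample 1, P0) and 3 Type-1 neurons (sample 5 at P0, samples 6 and 7 at P3) were derived from Dbx1-expressing precursors in Dbx1; Ai148 mice. In these mice Cre under the Dbx1 promoter switches on the calcium indicator GCaMP6f. The other Type-1 neuron (sample 4, P3) and the 5 neurons of Unknown type (samples 3 and 8 at P0, 10 at P1, 2 and 9 at P2) came from CD-1 wild-type mice without a reporter. Type-1 neurons are putatively rhythm-generating and Type-2 neurons putatively pattern-generating, and Unknown neurons were inspiratory but could not be classed. Within samples 5 to 10, Type-1 and Unknown neurons are also Dbx1-derived and CD-1 neurons, so type and mouse line cannot be told apart there. Some legends of the study assign the sample numbers to the mouse lines differently, and what is said of lines here rests on the GEO labels. No animal is given for any neuron and there is a single Type-2 neuron, so groups were not tested against each other, and every difference below describes these libraries.

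An AMPA receptor is a tetramer of GRIA subunits. The GRIA2 subunit sets its calcium permeability: in the adult brain nearly all Gria2 mRNA is edited at a glutamine codon in the pore loop, the Q/R site, to encode arginine, and receptors that hold the edited subunit pass little calcium. TARPs and cornichons bind the tetramer, carry it to the synapse and slow its gating. In the preBötC, AMPA receptors mediate the recurrent excitation that recruits neurons into the inspiratory burst.

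Between 21392146 and 36629393 fragments were counted on genes per library. FPKM divides a gene's fragments by its length in kilobases and by the library's total in units of 1000000, and 3 fragments, the most that a count of 0 allows, correspond to at most 0.00902 FPKM for Gria2 and 0.102 FPKM for Cnih2. Such limits and the intervals below cover counting error only. Some libraries stood apart from their labels. In sample 4 the 8 listed neuronal genes summed to 58.4 FPKM, against 761 to 4670 FPKM elsewhere, and the 8 listed microglial genes, all at 1 FPKM or more here and in sample 2, had a sum of 15398 FPKM against 0.685 to 2039 FPKM elsewhere. The 10 listed astrocyte genes summed to 11431 FPKM in sample 3, 6648 in sample 4, 6092 in sample 2 and 4083 in sample 8, and to between 194 and 2156 FPKM in the other neurons. Of the 8 genes of the oligodendrocyte lineage, 4 were at 1 FPKM or more in each of samples 2, 3 and 8 and at most 2 elsewhere. Of the 4 endothelial genes, 0 reached 1 FPKM in any neuron. The part that these genes' source cells play in the values below was not tested.

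**Figure D1:**
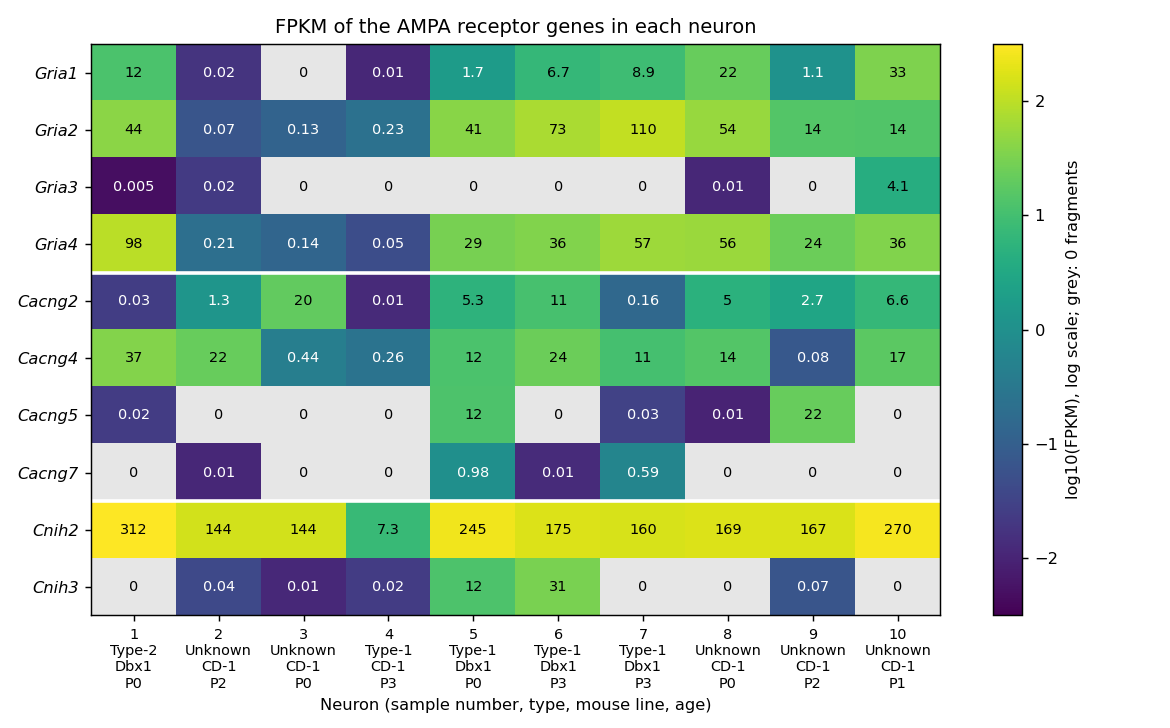
FPKM of the 10 genes (rows, grouped as pore-forming subunits, TARPs and cornichons) in the 10 neurons (columns, with type, mouse line and age). Colour is log10(FPKM) from 1 library per cell of the plot and grey marks 0 fragments. Cnih2 is the highest gene in every column, and the 4 subunit genes are at 0.232 FPKM or less in samples 2, 3 and 4.

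By FPKM, Cnih2 was the most abundant of the 10 genes in all 10 neurons, and Gria2 and Gria4 were the most abundant subunits. The lead of Cnih2 depended on gene length. By fragments, Gria2 exceeded it in samples 1, 5, 6, 7 and 8, with 22431 against 6135 in sample 8. Mean levels over the neurons were 179 ± 83.6 FPKM for Cnih2, 35 ± 36.8 FPKM for Gria2, 33.7 ± 31.0 FPKM for Gria4 and 13.8 ± 11.9 FPKM for Cacng4 (SD, n = 10 neurons). Gria1 followed at 8.62 ± 11.3 FPKM, Cacng2 at 5.28 ± 6.39 FPKM, Cnih3 at 4.36 ± 10.1 FPKM and Cacng5 at 3.47 ± 7.65 FPKM. Gria3 at 0.414 ± 1.30 FPKM and Cacng7 at 0.160 ± 0.344 FPKM were lowest. For 4 of these genes 1 neuron decided the mean: it was 1.41 FPKM for Cnih3 without sample 6, 1.39 FPKM for Cacng5 without sample 9, 0.0683 FPKM for Cacng7 without sample 5 and 0.00429 FPKM for Gria3 without sample 10. Apart from Cnih2 and Gria2, each neighbouring pair in this order differed by less than the larger of their SDs.

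At a limit of 1 FPKM, 8 of the 10 genes were present in sample 5, 7 in samples 6 and 10, 6 in samples 8 and 9, 5 in samples 1 and 7, 3 in sample 2, 2 in sample 3 and 1 in sample 4. Of the 21231 genes with a fragment in any neuron, samples 1 to 4 held 23.9%, 26.5%, 23.8% and 32% at that limit. The corresponding shares for samples 5 to 10 were 43.4%, 41.5%, 41.1%, 43.8%, 31.2% and 43.4%. Of the 10 genes, 6 reached 1 FPKM in at least 7 neurons, against 23.3% of all 21231 genes, and 1, Cnih2, in all 10, against 6.08%.

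Gria2 (chromosome 3, 80681450 to 80802835 in GRCm38, minus strand) encodes the subunit that carries the edited site. The files count fragments per gene, so editing and splice forms cannot be read from them. The stretch in which editing would act is given here for the 4 subunits, because only the Gria2 transcript is edited at this codon although the surrounding letters are nearly shared. Each line is 30 coding bases from GENCODE M21 transcripts on GRCm38, 5′ to 3′ on the gene's own strand, within 1 exon (exon 11, or exon 12 in Gria4), with the Q/R codon in capitals.
Gria1, chr11:57243082-57243111, plus strand: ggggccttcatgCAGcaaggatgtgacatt
Gria2, chr3:80706896-80706925, minus strand: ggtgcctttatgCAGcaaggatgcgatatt
Gria3, chrX:41610253-41610282, plus strand: ggtgcttttatgCAGcaaggatgtgatatt
Gria4, chr9:4464122-4464151, minus strand: ggtgcctttatgCAAcaaggatgtgacatt
All 4 genomic codons read glutamine, at residue 600 of Gria1, 607 of Gria2, 612 of Gria3 and 608 of Gria4 counted from the first methionine. The codon is CAG in Gria1, Gria2 and Gria3 and CAA in Gria4.

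The Type-2 neuron (sample 1) held 43.6 FPKM of Gria2, and the Dbx1-derived Type-1 neurons (samples 5, 6 and 7) held 40.8, 73.0 and 110.5 FPKM. Of the Unknown neurons, samples 8, 9 and 10 held 54.3, 14.2 and 13.6 FPKM. Samples 2, 3 and 4, all CD-1, held 0.0656, 0.126 and 0.232 FPKM. Sample 7 was highest with 44119 fragments (exact 95% Poisson interval 43708 to 44533), and the 3 low libraries held 37, 61 and 106 fragments.

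Gria4 (chromosome 9, 4417896 to 4796234, minus strand), whose subunit has fast kinetics and is characteristic of brainstem circuits, was detected in the same neurons. Its highest value was 97.6 FPKM, in sample 1, and samples 5, 6 and 7 held 29.3, 35.9 and 57.3 FPKM. Samples 8, 9 and 10 had 55.6, 24 and 36.4 FPKM, and samples 2, 3 and 4 had 0.210, 0.137 and 0.0485 FPKM. In all, 7 neurons reached 1 FPKM for both genes. Over samples 5 to 10 the mean was 39.8 ± 13.7 FPKM for Gria4 and 51.1 ± 37.1 FPKM for Gria2 (SD, n = 6 neurons).

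Gria1 (chromosome 11, 57011387 to 57330244, plus strand), the subunit best known from activity-dependent delivery to synapses, reached 1 FPKM in these 7 neurons too. Its highest values were 33.5 FPKM in sample 10 and 22.0 FPKM in sample 8, both Unknown. The Type-2 neuron held 12.2 FPKM, and the Dbx1-derived Type-1 neurons held 1.73, 6.71 and 8.93 FPKM (samples 5, 6 and 7). Sample 9 had 1.09 FPKM, samples 2 and 4 had 0.0183 and 0.0112 FPKM, and sample 3 had 0 fragments.

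Gria3 (chromosome X, 41400854 to 41678601, plus strand) was found above a few fragments in 1 neuron. Sample 10 held 1233 fragments, or 4.10 FPKM, which was 99.1% of the summed FPKM of this gene over the 10 neurons. Samples 1, 2 and 8 held 1, 8 and 3 fragments, and the other 6 neurons held 0, taken to allow up to 3 in each. The neuron with Gria3 was thus also the one with the most Gria1.

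The balance of Gria2 to the other subunits was taken as its share of the summed FPKM of the 4 subunit genes within a neuron, which does not depend on the depth of the library. In the 3 Dbx1-derived Type-1 neurons, samples 5, 6 and 7, Gria2 made up 56.8%, 63.1% and 62.5%, and was the highest subunit. In the Unknown samples 8, 9 and 10 it made up 41.2%, 36.2% and 15.5%, and in the Type-2 sample 1 28.4%, with Gria4 the highest subunit in each of these 4 neurons. Written as a ratio of Gria2 to the sum of the other 3, the values were 1.32, 1.71 and 1.67 in samples 5, 6 and 7, 0.699, 0.567 and 0.184 in samples 8, 9 and 10, and 0.397 in sample 1. Sample 10 had the most even composition, with 38.2% Gria1, 15.5% Gria2, 4.68% Gria3 and 41.6% Gria4. Over the 8 neurons with at least 100 fragments on the 4 genes, the mean Gria2 share was 47.9% ± 21.2 (SD, n = 8 neurons). This includes sample 4, at 79.5%, whose share rests on 117 fragments, and without it the mean was 43.4% ± 18.2 (n = 7).

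The level of the Gria2 share depended on the length by which fragments were divided. The deposited length of Gria2, 15548 bases, equals the length of all exons annotated for the gene in GENCODE M21, retained introns included, while the exons of its protein-coding transcripts cover 10486 bases and the coding sequence of the longest form 2649. For Gria4 both exon lengths are 6305 bases, and for Gria3 they are 9859 and 5498. With the exons of protein-coding transcripts as length, the Gria2 share was 66.1%, 71.7% and 71.1% in samples 5, 6 and 7, 50.7%, 45.7% and 20.5% in samples 8, 9 and 10, and 37% in sample 1. As a plain share of fragments it was 76.5% (exact binomial 95% interval 76.0 to 77.0), 81.0% (80.6 to 81.3) and 80.5% (80.2 to 80.9) in samples 5, 6 and 7. In samples 8, 9 and 10 it was 63.6% (63.1 to 64.1), 58.3% (57.3 to 59.4) and 30.9% (30.3 to 31.6), and in sample 1 49.6% (49.0 to 50.2). Of the 8 neurons, Gria2 was the highest subunit in 4 by FPKM, in 5 per exon length of coding transcripts and in 7 by fragments, and Gria4 in the others. Which gene led in samples 1, 8 and 9 depended on the length used.

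The order of the neurons moved little with the length. The scales share their counts, and Gria1 and Gria4 have nearly equal lengths on each, so agreement between scales was largely fixed in advance. On each of the 4 scales (FPKM, coding-transcript exons, coding sequence and fragments), samples 5, 6 and 7 lay above samples 8, 9 and 10, without overlap. The means were 60.8% ± 3.47 and 31.0% ± 13.6 by FPKM, and 79.3% ± 2.46 and 51.0% ± 17.5 by fragments (SD, n = 3 neurons each). In these 6 neurons the FPKM of 4.17% of 19273 genes was higher in samples 5 to 7 than in samples 8 to 10 without overlap, and that of 3.06% lower. These figures are for levels of single genes, a different measure from a share within a family, for which no such figure was computed. The FPKM of Gria2 itself overlapped, at 40.8 to 110.5 against 13.6 to 54.3. On all 4 scales the Type-2 neuron fell between the lowest and the highest of samples 8, 9 and 10.

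**Figure D2:**
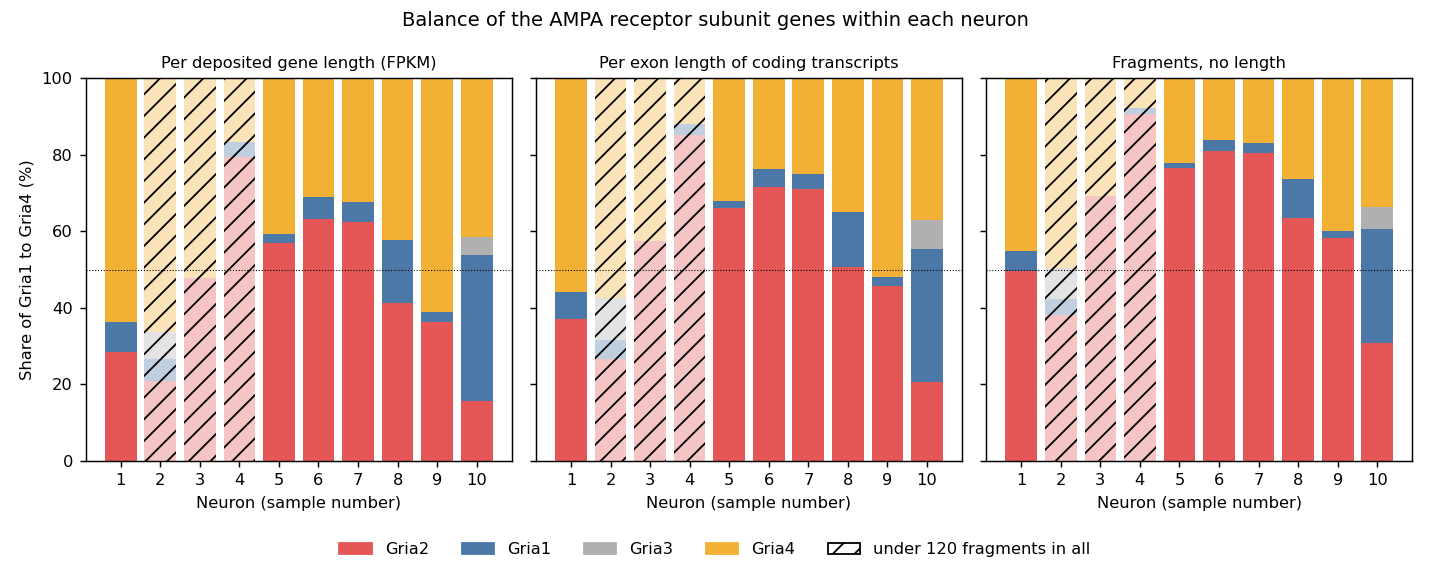
Share (%) of each of Gria1 to Gria4 within each of the 10 neurons, on 3 scales: per deposited gene length, per exon length of the protein-coding transcripts, and as fragments. Hatched bars rest on 88 to 117 fragments over the 4 genes. Gria2 takes 56.8% or more in samples 5, 6 and 7 and 41.2% or less in samples 1, 8, 9 and 10 on the first scale, and every Gria2 bar is taller on the third.

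Samples 2, 3 and 4 held few fragments on the 4 subunit genes, 97, 88 and 117 in all, against 8367 to 54785 in the other neurons. From genes nearly private to 1 library, the rate at which a library's fragments turned up in another was between 0% and 0.157%, with a median of 0.00707% over pairs. At these rates 49.4, 46.7 and 29.6 fragments of the 4 genes were expected in samples 2, 3 and 4 from the other libraries. For Gria2 alone, 37 fragments were counted and 31.3 expected in sample 2, 61 and 34.1 in sample 3, and 106 and 21.4 in sample 4. Gria4 had 48 fragments with 14.7 expected in sample 2, 27 with 11.1 in sample 3, and 9 with 6.19 in sample 4. Of these 6 values, Gria2 in sample 4 and Gria4 in sample 2 lay farthest above the expected number, at 4.94 and 3.27 times. Sample 2 also held 8 fragments of Gria3 with 0.0304 expected.

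Samples 2 and 3 held neuronal and auxiliary genes at higher levels than sample 4. In sample 2, 7 of the 8 neuronal marker genes were at 1 FPKM or more, Snap25 at 95.7 FPKM, and Cnih2 was at 144 FPKM. In sample 3 all 8 were, with Snap25 at 121 FPKM and Cnih2 at 145 FPKM. Cnih2 thus exceeded the summed subunit genes 455 and 549 times in samples 2 and 3, against 0.904 to 4.24 times in the 7 neurons with the subunits. The 2 high ratios rest on 97 and 88 subunit fragments, with 49.4 and 46.7 expected from other libraries. In sample 4, Snap25 was at 3.63 FPKM, Cnih2 at 7.32 FPKM and the ratio at 25.1. Fewer transcripts in the neuron and transcripts lost during collection or amplification cannot be told apart in 1 library. Samples 2, 3 and 4, together with sample 1, were also the libraries with the lowest cDNA concentrations. The paper reports this, with all of them passing its criterion, and describes part of their detected genes as lower and more variable. Sample 1 held 153 FPKM summed over the subunit genes. The part of cDNA concentration in the subunit values was not tested.

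Detection in these libraries also moved with gene length. Genes that reached 1 FPKM in all or all but 1 of samples 5 to 10, leaving out the neuron examined, served as a reference. Of the 1318 with a deposited length under 2 kb, samples 2, 3 and 4 held 82.3%, 81.9% and 82.9% at 1 FPKM, and of the 2006 with 5 kb or more they held 53.1%, 46.3% and 53.5%. Cnih2 has a length of 1369 bases, and the 4 subunit genes have lengths between 6043 and 15548 bases. Cacng2, of 5510 bases, was at 1.30, 20.3 and 0.0123 FPKM in samples 2, 3 and 4. Cacng4, of 3575 bases, was at 22.1, 0.440 and 0.257 FPKM there. In sample 1 the same shares were 58.2% and 57.5%, and its subunit genes were high. For sample 9 they were 83.4% and 61.2%, and for the remaining neurons 90.0% to 93.8% and 83.7% to 89.3%. The part of gene length in the subunit values was not tested.

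**Figure D3:**
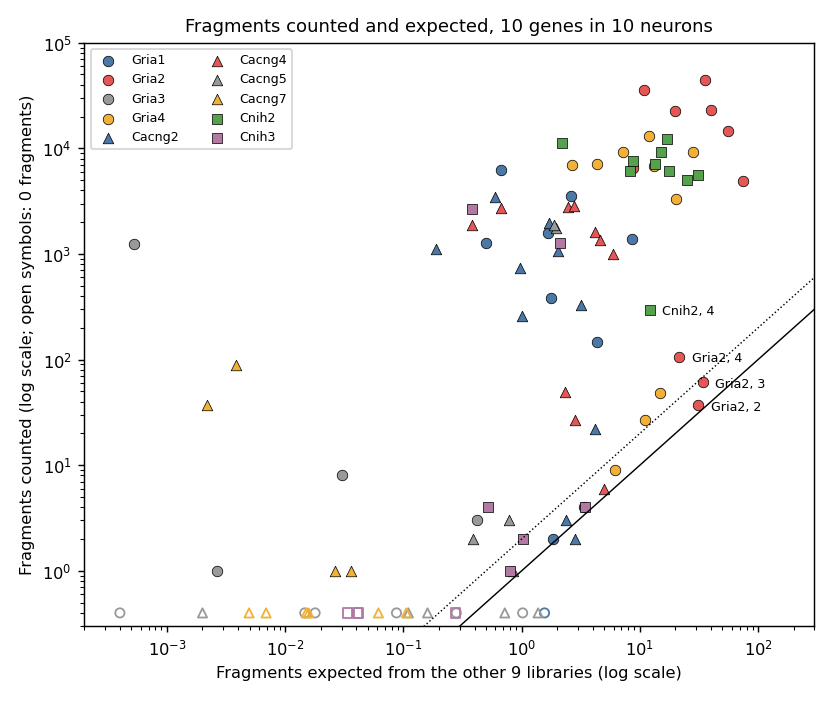
Fragments counted (vertical, log scale) against fragments expected from the other 9 libraries (horizontal, log scale) for the 10 genes in the 10 neurons, with open symbols at the foot for counts of 0. The solid line marks equality and the dotted line 2 times the expected number, and Gria2 of samples 2 and 3 lies between them.

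**Figure D4:**
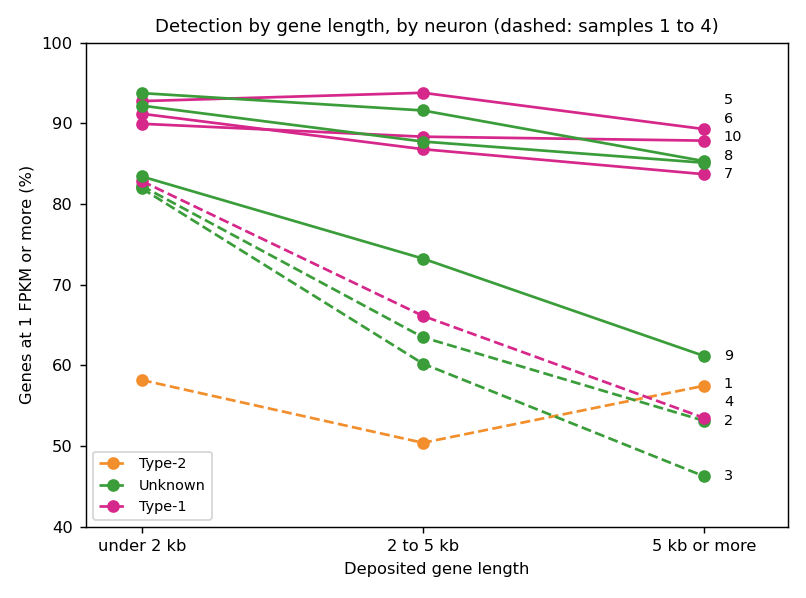
Share (%) of commonly detected genes at 1 FPKM or more in each neuron, by class of deposited gene length, with 1 line per neuron coloured by type and numbered at the right. The lines of samples 2, 3 and 4 go from between 81.9% and 82.9% for genes under 2 kb to between 46.3% and 53.5% for genes of 5 kb or more.

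Among the 4 TARP genes of the set, Cacng4 was the most abundant in 7 of the 10 neurons, in sample 4 on 27 fragments. Cacng4 (chromosome 11, 107732357 to 107794557, minus strand) encodes a TARP that is prominent in the developing brain. It was at 36.7 FPKM in sample 1, 12.3, 24.1 and 10.8 FPKM in samples 5, 6 and 7, and 14.2 and 17.1 FPKM in samples 8 and 10. Sample 2, without subunit transcripts at 1 FPKM, had 22.1 FPKM from 2860 fragments. Samples 3 and 4 had 0.440 and 0.257 FPKM, and sample 9 had 6 fragments with 4.98 expected from other libraries.

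Cacng2 (chromosome 15, 77991748 to 78120028, minus strand) encodes stargazin, the TARP whose loss causes ataxia and absence seizures in the stargazer mouse. Its highest value was 20.3 FPKM in sample 3, from 3479 fragments, where the 4 subunit genes summed to 0.263 FPKM. It was at 11.3, 6.62, 5.30, 5.04, 2.73 and 1.30 FPKM in samples 6, 10, 5, 8, 9 and 2. Sample 7 had 22 fragments with 4.17 expected, and samples 1 and 4 had 3 and 2 fragments with 2.38 and 2.84 expected. Exons of Cacng2 overlap those of A730060N03Rik on the opposite strand, and fragments of both cannot be told apart without strand.

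Cacng5 (chromosome 11, 107874605 to 107915055, minus strand), which lies next to Cacng4, and Cacng7 (chromosome 7, 3332955 to 3368221, plus strand) encode TARPs of the second class, which modulate gating with less effect on trafficking. Cacng5 was present in 2 neurons of different type, at 12.5 FPKM in the Type-1 sample 5 and 22.2 FPKM in the Unknown sample 9, from 1749 and 1877 fragments. Every other neuron held 3 fragments or fewer. Sample 9 was also the 1 neuron of samples 5 to 10 without Cacng4 at 1 FPKM. Cacng7 did not reach 1 FPKM in any neuron, with 88 fragments (0.984 FPKM) in sample 5, 37 (0.590 FPKM) in sample 7, and 1 or 0 elsewhere.

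Cnih2 (chromosome 19, 5092868 to 5098521, minus strand), whose protein exports AMPA receptors from the endoplasmic reticulum and slows their deactivation, varied less than any other gene of the set. It was at 312 FPKM in sample 1, 245, 175 and 160 FPKM in samples 5, 6 and 7, and 144, 145, 169, 167 and 270 FPKM in the Unknown samples 2, 3, 8, 9 and 10. Sample 4 was the exception with 7.32 FPKM, from 295 fragments with 12.1 expected. The SD was 0.466 of the mean for Cnih2 and 0.861 to 3.13 of it for the other 9 genes. As TPM, which scales each library to the same summed level per length, Cnih2 ran from 269 in sample 3 to 926 in sample 1 among the neurons other than sample 4, where it was at 10.6. Exons of Cnih2 overlap those of Yif1a on the opposite strand, and fragments in the overlap could come from either gene.

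Cnih3 (chromosome 1, 181352628 to 181460641, plus strand), the close relative of Cnih2, was present in 2 of the 3 Dbx1-derived Type-1 neurons. Sample 5 had 1260 fragments, or 12.5 FPKM, and sample 6 had 2677, or 30.9 FPKM. The third Type-1 neuron from these mice, sample 7, had 0 fragments, and the other neurons had between 0 and 4.

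Taken by class, the 4 TARP genes of the set made up 10.4% ± 3.48 of the summed FPKM of its 6 auxiliary genes (SD, n = 10 neurons). The range was from 3.53% in sample 4 to 14.7% in sample 6. The value of sample 4 rests on 29 TARP fragments, and without it the lowest was 6.78%, in sample 7. As a share of fragments, which favours the longer TARP transcripts, the mean was 24.8% ± 8.12. Cnih2 was the highest of these 6 genes in all 10 neurons. The leading gene of the 4 differed between neurons. It was Cacng2 in sample 3 (97.9% of the FPKM of the 4) and Cacng5 in samples 5 and 9 (40.2% and 88.8%). In the others it was Cacng4 (68.0% to 99.9%). Cacng3, a TARP gene outside the set, is not counted in these shares. It was at 26.8, 6.2 and 13.4 FPKM in samples 3, 6 and 9, and in sample 3 that was above Cacng2, at 20.3 FPKM. Sample 5 was the 1 neuron in which Cacng2, Cacng4 and Cacng5 were all at 1 FPKM or more.

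**Figure D5:**
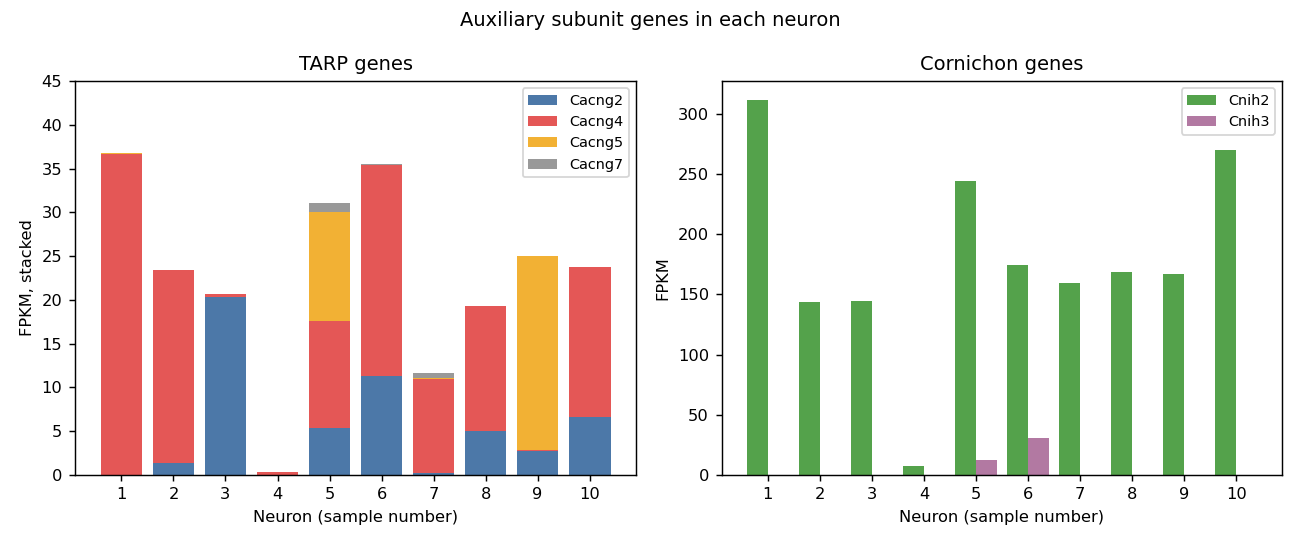
FPKM of the auxiliary genes in each of the 10 neurons: the 4 TARP genes stacked (left) and Cnih2 and Cnih3 side by side (right), both on linear axes from 0. Cacng5 is seen in samples 5 and 9 and Cnih3 in samples 5 and 6. The sum of these 4 TARP genes reaches 36.7 FPKM in sample 1, where nearly all of it is Cacng4.

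The question of whether the types differ can be put to these genes only as values side by side. Over all 4 Type-1 and 5 Unknown neurons, the ranges overlapped for all 10 genes, and over all genes tested 0.462% were higher and 0.319% lower in Type-1 neurons without overlap. With samples 5 to 7 set against samples 8 to 10, Cacng7 alone did not overlap, at 0.0130 to 0.984 FPKM against 0 fragments, where 4.17% of genes were higher without overlap. The lowest of these values is 1 fragment. Gria2 was at 40.8 to 110.5 FPKM against 13.6 to 54.3 FPKM, and Gria1 at 1.73 to 8.93 against 1.09 to 33.5 FPKM.

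The Type-2 neuron was set beside the 3 Dbx1-derived Type-1 neurons. Its values of Gria1 (12.2 FPKM), Gria4 (97.6), Cacng4 (36.7) and Cnih2 (312) lay above the highest of the 3, which were 8.93, 57.3, 24.1 and 245 FPKM, and they also did so in TPM. With Gria3, at 1 fragment against 0, that made 5 of 10 genes above the range, where 20.7% of 17391 genes lay above. Cacng2 and Cacng7 lay below it, 2 of 10, where 30.1% of genes lay below. For Cacng7 this rests on 1 fragment in sample 6, against 0 in sample 1. Gria2, at 43.6 FPKM, was within the range. The Type-2 neuron is 1 library, without a second neuron to set it against. It held 5065 genes at 1 FPKM or more, against 9223, 8817 and 8720 in samples 5, 6 and 7. It also held Gad1 at 71.8 and Slc6a5 at 146 FPKM, where samples 5, 6 and 7 held Slc17a6 at 101, 158 and 156 FPKM. Type, transmitter genes and library quality cannot be told apart here.

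By mouse line, the ranges of the 4 Dbx1-derived and 6 CD-1 neurons overlapped for all 10 genes (0.829% of all genes were higher and 0.626% lower in Dbx1-derived neurons without overlap). Gria2 was at 40.8 to 110.5 FPKM in the Dbx1-derived and at 0.0656 to 54.3 FPKM in the CD-1 neurons. By age, the ranges of the 5 neurons from P0 to P1 and the 5 from P2 to P3 overlapped for all 10 genes (0.127% and 0.122% of genes did not). Cnih2 was at 145 to 312 FPKM at P0 to P1 and at 7.32 to 175 FPKM at P2 to P3.

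The neurons also differed in their transmitter genes. Slc17a6, the vesicular glutamate transporter, was at 101, 158, 156 and 230 FPKM in samples 5, 6, 7 and 8, whose Gria2 shares by FPKM were 56.8%, 63.1%, 62.5% and 41.2%. Gad1, the GABA-synthesising enzyme, was at 71.8 and 92.0 FPKM in samples 1 and 10, with Gria2 shares of 28.4% and 15.5%, and Slc6a5, the glycine transporter, was at 146 and 8.60 FPKM there. Sample 3 held 37.2 FPKM of Gad1, with 88 fragments on the 4 subunit genes. Sample 9 had 0.495 FPKM of Slc17a6 and 0.0356 FPKM of Gad1, and a share of 36.2%. Sample 8 also held Gad1 at 8.28 FPKM and Pdgfra, a marker of oligodendrocyte precursors, at 0.669 FPKM, with 0 or 1 fragments of the latter in every other neuron. The 4 listed GABA and glycine genes (Gad1, Gad2, Slc32a1 and Slc6a5) summed to 5.51 FPKM in sample 7, with 1 of them at 1 FPKM or more. Their sums were 0.0596 and 0.00541 FPKM in samples 5 and 6 and 8.31 FPKM in sample 8. Sample 2 held Slc17a6 at 1.85 FPKM, with a sum of 6.25 FPKM over these 4 genes. These groups were formed on measured genes, so they are given as values.

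A further 41 genes of AMPA receptor assembly, anchoring and editing were listed. Of these, 12 reached 1 FPKM in 7 or more neurons, where 23.3% of all 21231 genes did, and 4 did so in all 10, where 6.08% did. A further 25 reached it in 1 to 6 neurons and 4 in none, among them the TARP gene Cacng8 and Cacng1 and Cacng6, which encode calcium channel gamma subunits that are not TARPs. Between 21 and 30 of the 41 reached 1 FPKM in samples 5 to 10, where 31.2% to 43.8% of all genes did. In samples 1, 2, 3 and 4 the counts were 16, 10, 11 and 8, beside 23.9%, 26.5%, 23.8% and 32% of all genes. The highest gene per class was Abhd12 (73.7 ± 29.0 FPKM, SD, n = 10 neurons) among those of the endoplasmic reticulum, Cnih1 (80.1 ± 71.1 FPKM) among other cornichons, Olfm1 (122 ± 91.7 FPKM), which encodes a secreted noelin, among other receptor-associated genes, and Nsf (57.2 ± 35.5 FPKM), a fusion ATPase that binds GRIA2, among trafficking genes. Abhd12, Olfm1 and Nsf were at 1 FPKM or more in all 10 neurons. The synaptic pentraxin gene Nptx2 was at 6.21, 23.1, 31.0 and 26 FPKM in samples 5, 6, 7 and 8, at 1.97 FPKM in sample 9 and at 0.0506 FPKM or less in the others. Gsg1l, a TARP-like gene, led its class with 16.2 ± 22.3 FPKM, Shisa8 the Shisa genes with 2.58 ± 5.84 FPKM, and Adarb2 the editing genes with 5.62 ± 12.0 FPKM. Dlg4, the postsynaptic scaffold gene, did not exceed 1.93 FPKM.

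Adarb1 encodes the enzyme that edits the Q/R codon shown above. It was at 3.93 FPKM in sample 1, 2.99 and 5.69 FPKM in samples 5 and 6, and 2.94 and 8.63 FPKM in samples 8 and 10. In sample 7, the neuron with the most Gria2, it had 8 fragments (exact 95% Poisson interval 3.45 to 15.8), with 4.10 expected from other libraries. Sample 9 had 52 fragments, or 0.209 FPKM, and samples 2, 3 and 4 had 4 or fewer. Whether the Gria2 mRNA of any neuron was edited cannot be read from counts per gene.

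Likeness to Gria2 was measured as Pearson's r of log2(FPKM + 1) over the 10 neurons, among 10414 genes that reached 1 FPKM in 3 or more neurons. The first 5 were Peg3 (0.976), Ap3m2 (0.967), Syt3 (0.963), Snhg14 (0.962) and Scn2a (0.961). Each reached 1 FPKM in 7 neurons. For Gria4 the first were Dnpep (0.991) and Pdlim7 (0.985), for Gria1 Tfrc (0.920) and Ydjc (0.920), and for Gria3, which 1 neuron decides, Gm47437 (0.963) and Gm16385 (0.885). The points share their libraries. Over samples 5 to 10 alone, which leaves out samples 1 to 4, 0 of the first 5 genes were the same.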

How the data were processed

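RNA of 10 single neurons, 1 library each, was amplified with SMART-Seq v4 and prepared with Nextera, which keep no strand and no molecular identifiers. The authors trimmed the reads with bbduk, aligned them with STAR 2.7.7a to GRCm38 with the Ensembl 102 annotation, and deposited raw counts of fragments per gene from featureCounts. They also deposited FPKM values and gene lengths in bases, and the deposited FPKM was checked to equal the count divided by the gene length and the library's summed counts. Type, mouse line and age follow the GEO labels, which match the counts of neurons per line in the study's text, while legends of its figures place samples 1 to 6 in CD-1 and samples 7 to 10 in the Dbx1-derived line. Depth was 21392146 to 36629393 fragments per library.

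Levels are FPKM as deposited, and shares within a neuron are of summed FPKM, averaged over neurons with at least 100 fragments on the genes concerned. TPM was computed from counts and lengths. Intervals are exact at 95% (Poisson for counts, Clopper-Pearson for shares). Fragments expected from other libraries are each other library's count times a rate for that pair, taken from private genes, which had 1000 or more counts in 1 library and no more than 2% as many in any other, with the highest 5% of ratios trimmed. That step and the ranking by likeness were tested on simulated data. Groups were not tested against each other, and no p was computed.

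The members, the lists and these settings were chosen with earlier results of these data known. The text names all 10 members, of the 41 further listed genes the highest of each class plus Adarb1 and Dlg4, chosen markers, and the genes most like each subunit. The division by gene length, the lengths of coding transcripts and the naming of Cacng1, Cacng3, Cacng6, Cacng8 and Shisa9 came after values had been seen. Gene models came from GENCODE M21 (GRCm38), in which 53365 of 55367 symbols were found. Python 3.11.15 was used, with SciPy 1.17.1, pandas 2.3.3, NumPy 2.4.6, Biopython 1.88 and Matplotlib 3.10.9. Alternatives were other lengths, limits, pseudocounts and filters, TPM, thinned libraries, subtraction of the expected fragments, and leaving out each neuron.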

Additional observations from a re-analysis of the deposited data

Results flagged for a closer look

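Dixon's criterion was applied at the 95% level to log2(FPKM + 1) of each gene and to the Gria2 share. Of 21 groups of values within the Type-1 (4) or Unknown (5) neurons, 7 held a neuron that stood apart from the rest. For normally distributed values chance alone gives this in about 1 in 20 groups. A gene at 0 in all neurons but 1 is flagged at any level, so the number of flags cannot be set against that rate. The groups also share neurons and are not independent.

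Among the Type-1 neurons, sample 4 was the lowest for Gria4, at 0.0485 FPKM with 29.3 FPKM next, and for Cnih2, at 7.32 FPKM with 160 FPKM next. This is the library with a sum of 15398 FPKM over the microglial list and 58.4 FPKM over the neuronal list. Sample 5 was the highest for Cacng5, at 12.5 FPKM with 0.0305 FPKM next.

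Among the Unknown neurons, sample 10 was the highest for Gria3, at 4.10 FPKM with 0.0224 FPKM next, and for Cnih2, at 270 FPKM with 169 FPKM next. Sample 9 was the highest for Cacng5, at 22.2 FPKM with 0.00982 FPKM next. Sample 2 was the highest for Cacng7, at 0.0113 FPKM, which is 1 fragment where the other 4 had 0.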

How the results depend on the processing

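The mean Gria2 share, 47.9% by FPKM, moved by less than the SD between neurons under all 14 alternatives: it was 66.4% as fragments, 66.8% per coding length, 56.0% per exon length of coding transcripts, 45.2% with at least 20 fragments, 43.4% after subtraction of expected fragments, 45.9% over samples 5 to 10, and 43.4% to 52.5% with 1 neuron left out. That SD, 21.2, is widened by sample 4, and the change to fragments raised the share in every neuron. Without sample 4 the mean went from 43.4% (SD 18.2) by FPKM to 62.9% as fragments, a move larger than that SD. Over samples 5 to 10 it also moved by more than the SD, from 45.9% (SD 18.6) to 65.1%. The mean share of the 4 listed TARP genes, 10.4%, moved to 24.8% as fragments and 14.6% per coding length. It stayed between 9.94% and 11.2% with 1 neuron left out. TPM raised the means of 6 genes by more than 1 SD, to 24.2 for Gria1, 98.7 for Gria2, 93.9 for Gria4, 12.8 for Cacng2, 37.7 for Cacng4 and 472 for Cnih2, since a unit of FPKM is worth between 1.45 and 3.00 TPM in these libraries. Of 40 recounts of neurons per gene 3 moved by over 1.5 times, and of 40 recounts of genes per neuron 2 did. Of the 5 genes most like Gria2, 3 stayed with a pseudocount of 0.1, 1 with Spearman's rho and 5 without the filter at 1 FPKM. The lengths and samples 5 to 10 for likeness were chosen after seeing the data. No paired analysis was possible because the labels pair no neurons and no test was made. A gene at 0 fragments was taken to hold up to 3, and each value of a type rests on 1 to 5 neurons.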

Other observations

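Some genes related to the TARPs and to editing were found in few neurons, and these were chosen after their values were seen. Gsg1l, which encodes a TARP-like protein that slows recovery from desensitization, was at 56.8, 27.0, 45 and 33.5 FPKM in samples 6, 7, 8 and 9. It had 8 fragments or fewer in the other 6 neurons, among them samples 1, 5 and 10, in which the subunit genes were high. Cacng3, a TARP gene close to Cacng2, was at 26.8, 6.2 and 13.4 FPKM in samples 3, 6 and 9 and at 0.294 FPKM or less elsewhere. Shisa9, which encodes an auxiliary protein that favours synaptic depression, was at 10.4 and 9.31 FPKM in samples 1 and 10 and at 2.90 FPKM in sample 7. Adarb2, a relative of Adarb1 without known editing activity, was also highest in samples 1 and 10, at 34.1 and 21.1 FPKM, and at 0.918 FPKM in sample 5. Samples 1 and 10 are those with Slc6a5 at 1 FPKM or more and with the lowest Gria2 shares among the 7 neurons with subunit transcripts.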
